A study of Mus musculus with 28 samples.

Results

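The genes described here are 43 genes of the cell cycle and of DNA replication, followed across the sorted cells of the E12.5 mouse vertebral column. They were listed by name, in 5 roles: 15 replication genes, 11 mitosis genes, 12 cyclins and cyclin-dependent kinases (CDKs), 2 transcription factors and 3 CDK inhibitors, and every array probe that the platform annotation assigns to one of these symbols was taken. Probes were present for 41 of the 43 genes (none was annotated to *Mki67* or *Ccnb1*), and 40 genes were kept, with 84 of their 92 probes, among 13373 genes in all. The gene left out at this step was *Cdk6*, whose probe was detected on 0 arrays. A probe was kept when its detection p was below 0.05 on at least 3 arrays, and 15 of the 40 genes rested on 1 kept probe.

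Dividing cells copy their genome once per cycle. The Mcm2 to Mcm7 helicase is loaded at replication origins by Cdc6 and Cdt1, and Cdt1 is inhibited by geminin. The helicase is activated with Cdc45 and Mcm10, while ribonucleotide reductase and thymidylate synthase supply the nucleotides. Cyclins and their kinases order these steps, the E2F and FoxM1 transcription factors drive the genes of S phase and of mitosis, and the Cip/Kip inhibitors hold the kinases back. In the vertebral column, the Pax1 and Pax9 transcription factors mark the ventral sclerotome and the cells that condense into the intervertebral disc anlagen.

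The study profiled EGFP(+) cells, sorted by fluorescence from E12.5 mouse vertebral columns, on Illumina bead arrays, in 5 genotypes on a hybrid 129Sv/C57BL/6/129X1/129S1 background, and EGFP(-) cells for comparison. The genotypes were *Pax1 WT:+/EGFP* (WT, 5 replicates on 6 arrays), in which EGFP follows an intact *Pax1* reading frame, *Pax1+/-* (5 replicates on 5 arrays), *Pax1-/-* (5 replicates on 8 arrays), *Pax1-/-Pax9+/-* (3 replicates) and *Pax1-/-Pax9-/-* (3 replicates). The EGFP(-) cells made 3 replicates. All EGFP(+) groups therefore carry at least 1 *Pax1* allele with EGFP, WT included. Outside the compound mutants the sort follows activity of the *Pax1* locus. The disrupted *Pax9* allele carries an EGFP cassette as well, so that in the compound mutants the sort can follow either locus. Whether the cells sorted there match those of WT was not tested. The compound mutants were bred from double heterozygotes. The genotype of the EGFP(-) cells is not in the sample labels, and one protocol label names EGFP(+) sorting for them too. Their title and genotype label were followed. Each replicate pooled sorted cells of a pair of vertebral columns, and the RNA was amplified before hybridisation. In such bulk samples, fewer cells of a type and less RNA per cell cannot be told apart. Levels below are log2 of background-corrected, quantile normalised intensity, averaged over the kept probes of a gene, and levels of different genes are not compared.

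Some libraries stood apart. The arrays fell into 2 chip series: on 17 arrays of series A, 45.44% to 50.64% of probes were detected, and on 11 arrays of series B, 42.2% to 44.23%. All arrays of both compound mutants were on 1 chip of series B, whereas the *Pax1+/-* and EGFP(-) arrays were all in series A, and only WT and *Pax1-/-* had arrays in both. *Pax9* was not detected in 2 of the 3 replicates labelled *Pax1-/-Pax9-/-*, at 4.73 in B2 and 4.77 in B3, but was detected in B1 at 6.81, within the 6.54 to 6.89 of *Pax1-/-Pax9+/-*. The library labelled *Pax1-/-Pax9-/-* B1 thus differed from B2 and B3 in *Pax9*, and results on that group are given with and without it. The paper reports no considerable change of *Pax9* in its compound mutants, whereas on these arrays it was not detected in B2 and B3. The genotype of B1 was not tested, and whether its label is right cannot be said here. Signal of the *Pax1* probes persisted in *Pax1-/-* cells, and the deletion cannot be checked with them. Among the EGFP(-) replicates, *Pax1* stood at 8.53 in B1, 7.62 in B2 and 4.70 in B3, against 10.52 to 11.51 in the EGFP(+) replicates. The EGFP(-) cells also held markers of other cell types. The summed intensity of 8 erythroid markers was 25900 to 30100 there and 552 to 5780 in WT, that of 15 macrophage and granulocyte markers 8370 to 10600 against 367 to 686, that of 12 neuronal markers 5230 to 5270 against 1130 to 2040, and that of 10 sclerotome and disc markers 1290 to 2780 against 7440 to 9090, with *Pax9* and *Nkx3-2* not detected in EGFP(-) cells.

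The start regions of the genes show the sequence elements through which this class of genes is known to be driven. RefSeq promoters on GRCm38.p6, from 250 bases before to 50 bases after a start, matched 34 of the 43 genes with 37 promoters. An E2F word (TTTCCCGC, TTTCGCGC, TTTGCCGC or TTTGGCGC, either strand) was present in 8 of the 37 promoters (21.6%) and in 2.26% of all 32851 promoters of the table. By role, it was present in 6 of 14 promoters of replication genes and in 0 of 10 of mitosis genes. A CHR word (TTTGAA or TTCGAA, either strand), the element of G2/M genes, was present in 8 of 10 promoters of mitosis genes, in 3 of 14 of replication genes and in 19.2% of all promoters. A CCAAT box was present in 25 of the 37 promoters (67.6%) and in 37.4% of all. Words on opposite strands can overlap. The CDK inhibitors had 3 promoters, of which 0 held an E2F word and 0 a CHR word. Of the 14 genes with a promoter that were called in any comparison below, 7 held an E2F or CHR word before the start, and these stretches are shown, 5′ to 3′ on the gene's strand, with the words in capitals.
Mcm6 (chr1:128359735-128359824, minus strand): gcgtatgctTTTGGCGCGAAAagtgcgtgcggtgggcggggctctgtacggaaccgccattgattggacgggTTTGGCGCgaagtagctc
Mcm7 (chr5:138172031-138172120, minus strand): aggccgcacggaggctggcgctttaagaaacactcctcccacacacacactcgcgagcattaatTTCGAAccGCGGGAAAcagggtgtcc
Cdc6 (chr11:98907941-98908030, plus strand): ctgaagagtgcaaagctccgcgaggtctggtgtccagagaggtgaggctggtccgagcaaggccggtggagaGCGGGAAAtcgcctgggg
Cdk2 (chr10:128705174-128705263, minus strand): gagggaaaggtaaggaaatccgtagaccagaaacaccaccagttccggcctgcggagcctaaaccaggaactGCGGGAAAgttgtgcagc
Cdc45 (chr16:18812197-18812222, minus strand): aggcctgaggTTTGAAtattacttaa
Bub1b (chr2:118597961-118598038, plus strand): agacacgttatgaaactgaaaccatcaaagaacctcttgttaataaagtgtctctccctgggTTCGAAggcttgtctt
Cdc20 (chr4:118437346-118437435, minus strand): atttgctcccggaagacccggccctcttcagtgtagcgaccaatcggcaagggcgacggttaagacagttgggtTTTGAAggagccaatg
*Mcm6* held E2F words at both ends of the stretch, 2 of them overlapping on opposite strands, *Mcm7* an E2F word beside a CHR word, *Cdc6* and *Cdk2* 1 E2F word each, and *Cdc45*, *Bub1b* and *Cdc20* 1 CHR word each. A match is a description of letters and not of a bound site, and the entries of *Gmnn*, *Mcm4*, *Ccna2*, *Ccnd1*, *Ccnd2*, *Ccne2*, *Aurkb*, *Foxm1* and *Cdkn1c* were missing from the table.

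EGFP(+) cells were first compared with EGFP(-) cells, separately for WT, *Pax1+/-* and *Pax1-/-*. In each genotype most of the 40 genes stood higher in EGFP(+) cells, by a modest amount. In WT, *Ccnd2*, *Bub1b*, *Cdc45* and *Rrm1* rose and *Cdkn1a* fell. Genes were called in limma where the p adjusted over all 13373 genes (Benjamini-Hochberg) was below 0.05 and the change was 1.5-fold or more. The 4 genes higher in WT compare with 7.22% of all genes tested and the 1 gene lower with 9.14%, 16.4% in either direction, so the share of called genes was near the background. In *Pax1+/-*, 10 of the 40 genes rose and 0 fell, against 8.14% of all genes higher and 9.63% lower, 17.8% in all. In *Pax1-/-*, 8 rose and 0 fell, against 7.49% higher and 8.69% lower, 16.2% in all. The replicates of EGFP(+) and EGFP(-) cells did not overlap for 7, 16 and 13 of the 40 genes, against 19.8%, 24.5% and 24.5% of all genes. The 3 comparisons use the same EGFP(-) replicates and are not independent of each other.

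The median log2 difference of the 40 genes was 0.28 in WT, 0.44 in *Pax1+/-* and 0.29 in *Pax1-/-*, beside 0.06, 0.08 and 0.06 over all genes. By role, the WT medians were 0.36 for the replication genes, 0.42 for the mitosis genes, 0.17 for the cyclins and CDKs and -0.17 for the inhibitors. The corresponding values were 0.45, 0.52, 0.32 and 0.08 in *Pax1+/-* and 0.34, 0.46, 0.19 and -0.23 in *Pax1-/-*. With all replicates, replication and mitosis genes were thus shifted more than cyclins and kinases in every genotype, as medians without a test. Without EGFP(-) B3 this order was not kept in every genotype. The replication medians were then 0.23, 0.33 and 0.20 and the mitosis medians 0.14, 0.31 and 0.15, for WT, *Pax1+/-* and *Pax1-/-*. Over all fits that left out 1 replicate, the cyclin and CDK medians lay at 0.14 to 0.22, 0.30 to 0.36 and 0.18 to 0.25. In WT, 14 of 15 replication genes, 9 of 10 mitosis genes and 9 of 10 cyclins and CDKs lay above 0, whereas 2 of the 3 inhibitors lay below, and 56.9% of all genes lay above 0.

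**Figure D1:**
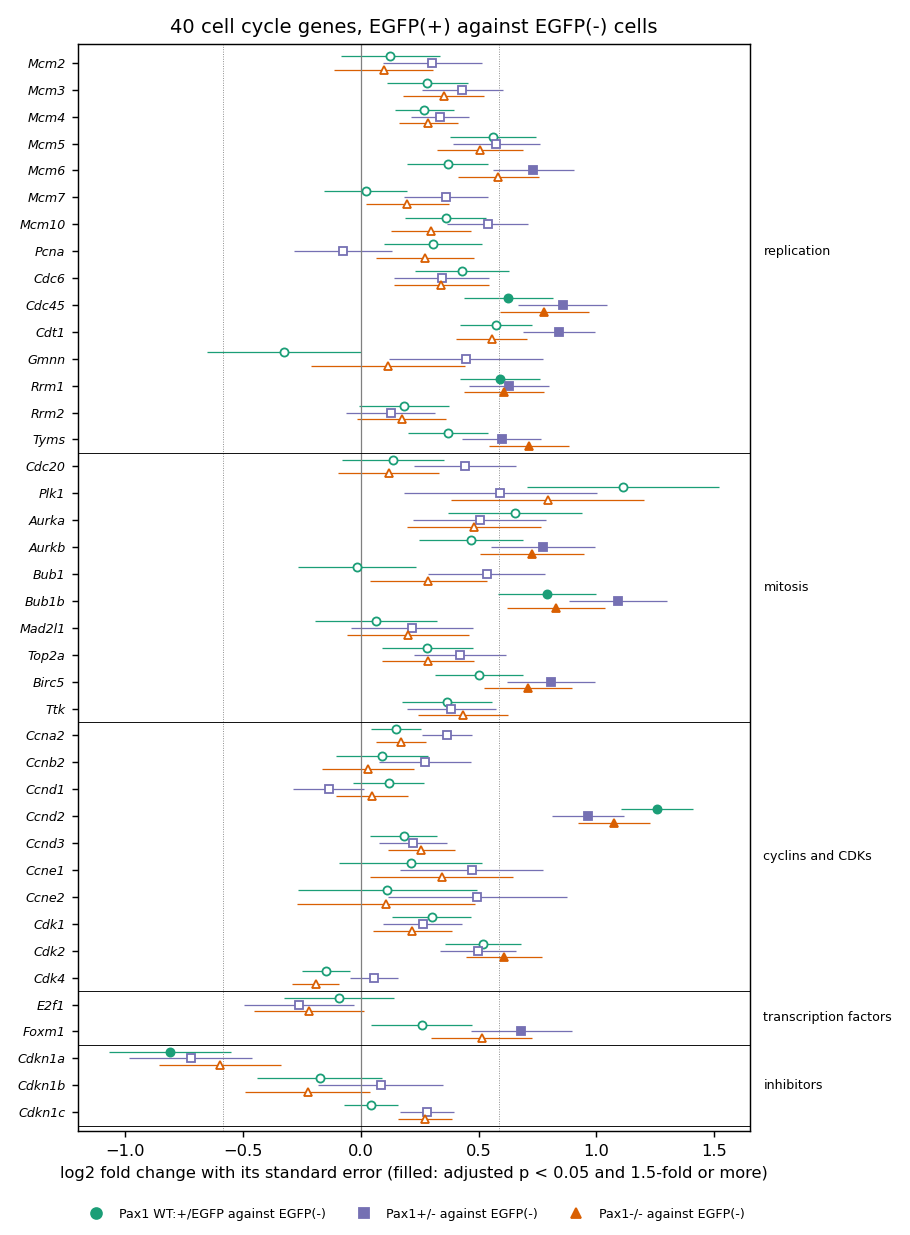
Log2 difference (EGFP(+) minus EGFP(-), with standard error) of each of the 40 genes for WT, *Pax1+/-* and *Pax1-/-*, grouped by role; filled points passed the adjusted p and the fold change. Most points lie right of 0, and *Ccnd2* lies between 0.97 and 1.26.

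*Ccnd2*, which encodes cyclin D2, a partner of Cdk4 and Cdk6 in G1, showed the clearest separation. Its level was 7.42, 7.33 and 6.88 in the EGFP(-) replicates B1, B2 and B3, and 8.35, 8.33, 8.32, 8.62 and 8.71 in the WT replicates. It was 8.23, 8.16, 8.12, 8.20 and 8.16 in *Pax1+/-*, and 7.91, 8.34, 8.57, 8.26 and 8.34 in *Pax1-/-*. None of the EGFP(+) replicates reached down to the EGFP(-) range. *Ccnd2* rose by 1.26 ± 0.15 (SE) in WT, 2.39-fold (limma, adjusted p = 7.07e-06), by 0.97 in *Pax1+/-* (adjusted p = 0.000103) and by 1.08 in *Pax1-/-* (adjusted p = 4.01e-05). The call held in each fit that left out 1 replicate, with WT differences from 1.09 to 1.36. Within chip 3, chip 4 and chip 5, each with 1 EGFP(-) array, the WT difference was 0.99, 1.48 and 0.94. The other D-type cyclin genes did not pass the test, and *Ccnd1* differed from EGFP(-) cells by 0.12, -0.14 and 0.05 in WT, *Pax1+/-* and *Pax1-/-*.

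Among the mitosis genes, *Bub1b*, which encodes the spindle checkpoint kinase BubR1, rose in all 3 genotypes. Its EGFP(-) levels were 6.25, 7.10 and 7.17 in B1, B2 and B3, and its WT levels 8.08, 7.34, 7.34, 7.95 and 7.45 in B2, B3, B4, B5 and B7. The groups did not overlap, but EGFP(-) B1 lay far below the other two. The difference was 0.79 ± 0.21 (SE) in WT (limma, adjusted p = 0.00989), 1.09 in *Pax1+/-* and 0.83 in *Pax1-/-*. Without EGFP(-) B1 it was 0.49 in WT (adjusted p = 0.0942) and 0.53 in *Pax1-/-* (adjusted p = 0.0702), while the *Pax1+/-* call remained at 0.80. *Aurkb* and *Birc5*, which encode the kinase and the survivin subunit of the chromosomal passenger complex, rose in *Pax1+/-* by 0.77 and 0.81 and in *Pax1-/-* by 0.73 and 0.71. In WT they differed from EGFP(-) cells by 0.47 (adjusted p = 0.155) and 0.50 (adjusted p = 0.0662), and their WT replicates overlapped those of EGFP(-) cells, at 9.51 to 10.30 against 8.93 to 9.79 for *Birc5*. Both calls were lost in both genotypes without EGFP(-) B3, and that of *Aurkb* in *Pax1-/-* also without EGFP(-) B1, at 0.71 (adjusted p = 0.0683), and with chip as a fixed block, at 0.58. *Plk1*, a kinase of mitotic entry and spindle assembly, differed by 1.11 in WT without passing the test (adjusted p = 0.0623), its 5 WT replicates ranging from 8.20 to 10.41.

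Among the replication genes, *Cdc45*, the helicase cofactor that marks origin firing, and *Rrm1*, the large subunit of ribonucleotide reductase, rose in all 3 genotypes. *Cdc45* stood at 7.40, 7.58 and 6.62 in EGFP(-) B1, B2 and B3 and at 7.77, 7.89, 7.50, 8.07 and 7.91 in WT, a difference of 0.63 ± 0.19 (SE, limma, adjusted p = 0.0226). *Rrm1* stood at 7.95, 7.95 and 7.49 in EGFP(-) cells and at 8.38, 8.08, 8.09, 8.70 and 8.69 in WT, a difference of 0.59 ± 0.17 (adjusted p = 0.0179). EGFP(-) B3 was the lowest replicate for both genes. The WT groups did not overlap for *Rrm1*, and for *Cdc45* WT B4 at 7.50 lay below EGFP(-) B2. Differences in the other genotypes were 0.86 and 0.78 for *Cdc45* and 0.63 and 0.61 for *Rrm1*, in *Pax1+/-* and *Pax1-/-*. *Mcm6*, a helicase subunit, and *Cdt1*, a helicase loader, rose in *Pax1+/-* by 0.73 and 0.84, and *Tyms*, the thymidylate synthase gene, by 0.60 there and by 0.71 in *Pax1-/-*. The *Pax1+/-* call of *Tyms* lay under the fold change with chip as a random or a fixed block, at 0.58 and 0.57. Without EGFP(-) B3 it was lost as well, as was the call of *Mcm6*. *Rrm1* in WT lay under the fold change with chip series or chip as a fixed block, at 0.55 and 0.58, and in *Pax1-/-* at 0.52 and 0.54. In WT, *Cdt1* passed the adjusted p alone, at 0.57 (adjusted p = 0.0103), with WT at 7.81 to 8.19 and EGFP(-) at 7.25 to 7.64. *Gmnn*, which encodes geminin, the inhibitor of Cdt1, differed by -0.33 in WT (adjusted p = 0.551), and its WT levels spanned 5.05 to 6.83.

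Of the kinases and transcription factors, *Cdk2*, the S-phase kinase, rose in *Pax1-/-* by 0.61 (limma, adjusted p = 0.0107), just past the fold change. It was under the fold change with chip series as a fixed block, at 0.52, with chip as a random block, at 0.58, and with chip as a fixed block, at 0.53, and the call was lost without EGFP(-) B3. In WT and *Pax1+/-* it passed the adjusted p alone, at 0.52 and 0.50. *Foxm1*, which drives G2/M genes, rose in *Pax1+/-* by 0.68 (adjusted p = 0.0278), at 6.15 to 6.65 against 5.67 to 5.98 in EGFP(-) cells, and differed by 0.26 in WT (adjusted p = 0.456). The *Pax1+/-* call was lost in 5 of 18 fits that left out 1 replicate, among them those without EGFP(-) B2, at 0.66 (adjusted p = 0.0813), and without EGFP(-) B3, at 0.62 (adjusted p = 0.103), the others being without *Pax1+/-* B1, B4 or B5. *E2f1* did not pass in any of the 3, at -0.09, -0.26 and -0.22. For *Cdk1* and *Cdk4* the kept probes disagreed in sign, at 0.85 and -0.25 for *Cdk1* and -0.48 and 0.18 for *Cdk4* in WT, so their averaged values are uncertain.

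*Cdkn1a*, which encodes the CDK inhibitor p21, was the gene that fell. Its level was 6.31, 5.69 and 5.51 in EGFP(-) B1, B2 and B3, and 5.44, 4.56, 4.88, 5.13 and 5.12 in WT. All WT replicates lay below all EGFP(-) replicates, by a narrow margin between EGFP(-) B3 and WT B2. *Cdkn1a* fell by 0.81 ± 0.26 (SE, limma, adjusted p = 0.0323) in WT. It was detected on 5 of 6 WT arrays, against 3 of 3 EGFP(-) arrays, so that the low levels are near background. It differed by -0.72 in *Pax1+/-* (adjusted p = 0.0535) and -0.60 in *Pax1-/-* (adjusted p = 0.119), where the groups overlapped. The WT call was lost without EGFP(-) B1, at -0.57 (adjusted p = 0.189), without EGFP(-) B2 at -0.88 (adjusted p = 0.0529), and without WT B3 or WT B4. It was lost with chip series as a fixed block, at -0.77 (adjusted p = 0.0534), and with chip as a fixed block, at -0.78 (adjusted p = 0.0636). The other inhibitor genes, *Cdkn1b* (p27) and *Cdkn1c* (p57), differed by -0.17 and 0.04 in WT.

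**Figure D2:**
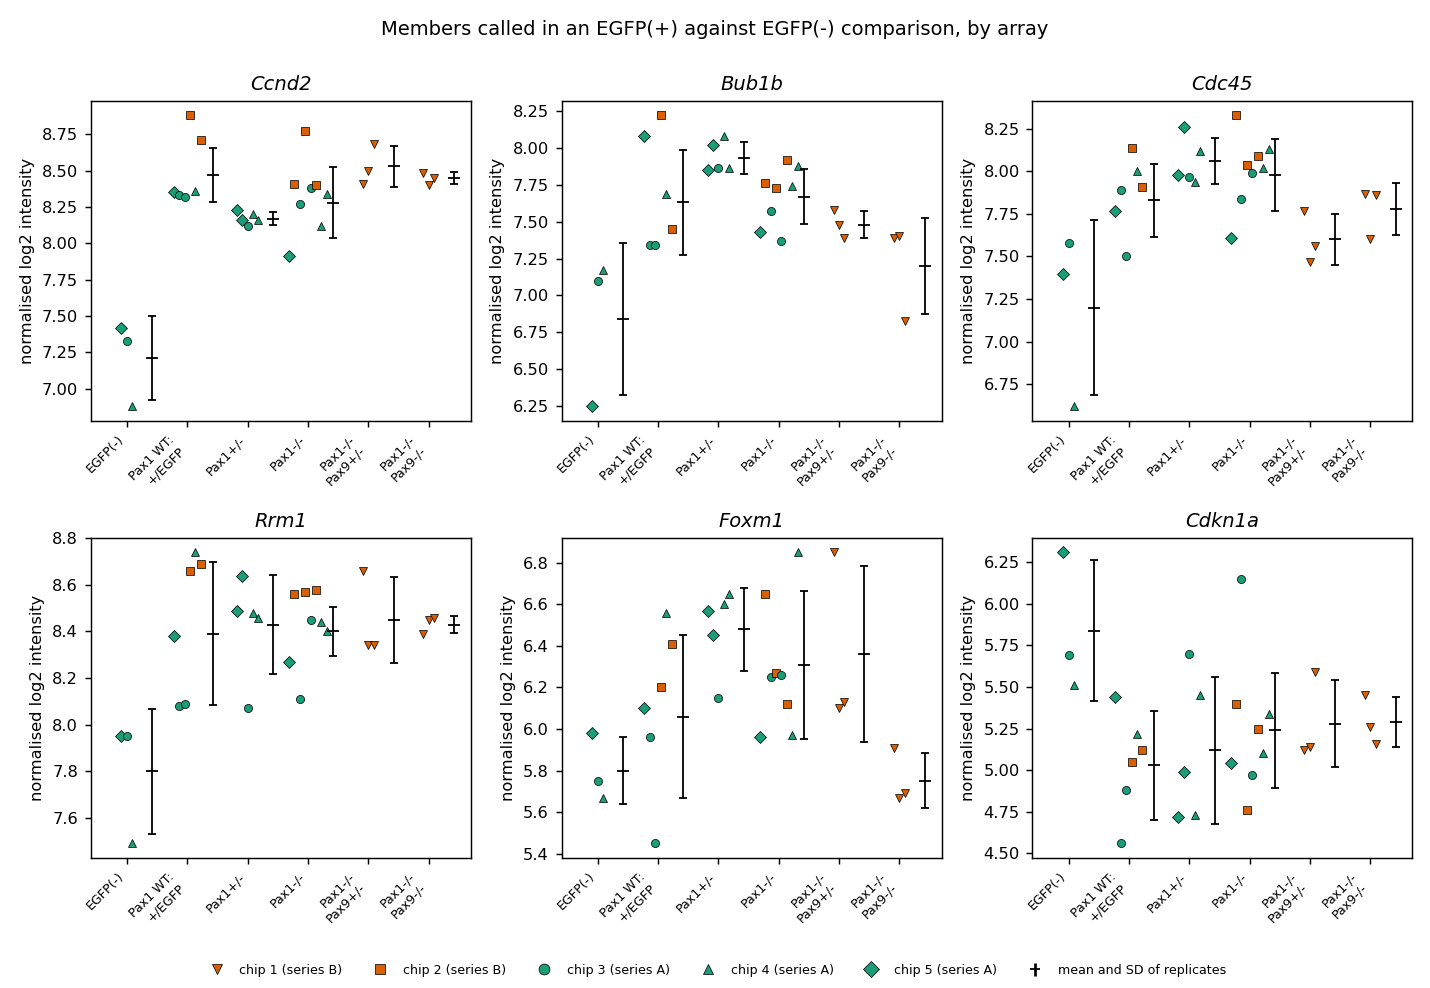
Level (log2 normalised intensity) of *Ccnd2*, *Bub1b*, *Cdc45*, *Rrm1*, *Foxm1* and *Cdkn1a* on each array, by group, with the chip of each array marked and the mean and SD of the replicates beside. *Ccnd2* in EGFP(-) cells, at 6.88 to 7.42, lies below every EGFP(+) array, and the low EGFP(-) points of *Cdc45* and *Rrm1* are replicate B3.

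The size of the shift depended on EGFP(-) B3. The mean deviation of the 40 genes from their averages over the series was -0.45 in B3, -0.15 in B2 and -0.17 in B1, and for the mitosis genes -0.82, -0.05 and -0.27. For the cyclins and CDKs it was -0.19, -0.24 and -0.29, so that B3 was not lowest there. In the same replicate the summed endothelial markers stood at 741, against 2340 and 2370 in the others, the sclerotome markers at 1290, against 2780 and 2510, and *Pax1* at 4.70; the part of these differences in the result was not tested. Without B3, 3 of the 40 genes were called in WT (2 higher, 1 lower), 4 in *Pax1+/-* (3 higher, 1 lower) and 3 in *Pax1-/-* (all higher). The share of all genes called higher was then 5.94%, 6.62% and 5.99%, close to the 5%, 7.5% and 7.5% of the 40 genes. *Ccnd2* and *Bub1b* were kept in all 3 genotypes, *Cdkn1a* in WT, *Cdt1* in *Pax1+/-* and *Tyms* in *Pax1-/-*, and *Cdkn1a* was then called lower in *Pax1+/-* too. The calls of *Cdc45* and *Rrm1* were lost in all 3 genotypes, at 0.34 (limma, adjusted p = 0.194) and 0.44 (adjusted p = 0.122) in WT, at 0.57 and 0.47 in *Pax1+/-* and at 0.49 and 0.45 in *Pax1-/-*. In *Pax1+/-* those of *Mcm6* (0.47), *Tyms* (0.54), *Aurkb* (0.56), *Birc5* (0.58) and *Foxm1* (0.62) were lost as well, and in *Pax1-/-* those of *Aurkb* (0.51), *Birc5* (0.48) and *Cdk2* (0.52). The medians of the 40 genes without B3 were 0.18, 0.33 and 0.20. Within single chips, 11, 8 and 10 genes were called on chip 4, which holds B3, 0, 0 and 0 on chip 3, and 1, 3 and 0 on chip 5, for WT, *Pax1+/-* and *Pax1-/-*. Each of these chips holds 1 EGFP(-) array, and chips 4 and 5 hold 1 WT array each and chip 3 holds 2, so that the spread comes from the groups with more than 1 array on the chip and a single array is assumed to vary like them. Of all genes, 9%, 11% and 10.2% were called within chip 4, 4.55%, 1.74% and 3.81% within chip 3 and 4.31%, 8.88% and 3.66% within chip 5. The medians of the 40 genes within chips 3, 4 and 5 were 0.12, 0.84 and 0.25 in WT.

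**Figure D3:**
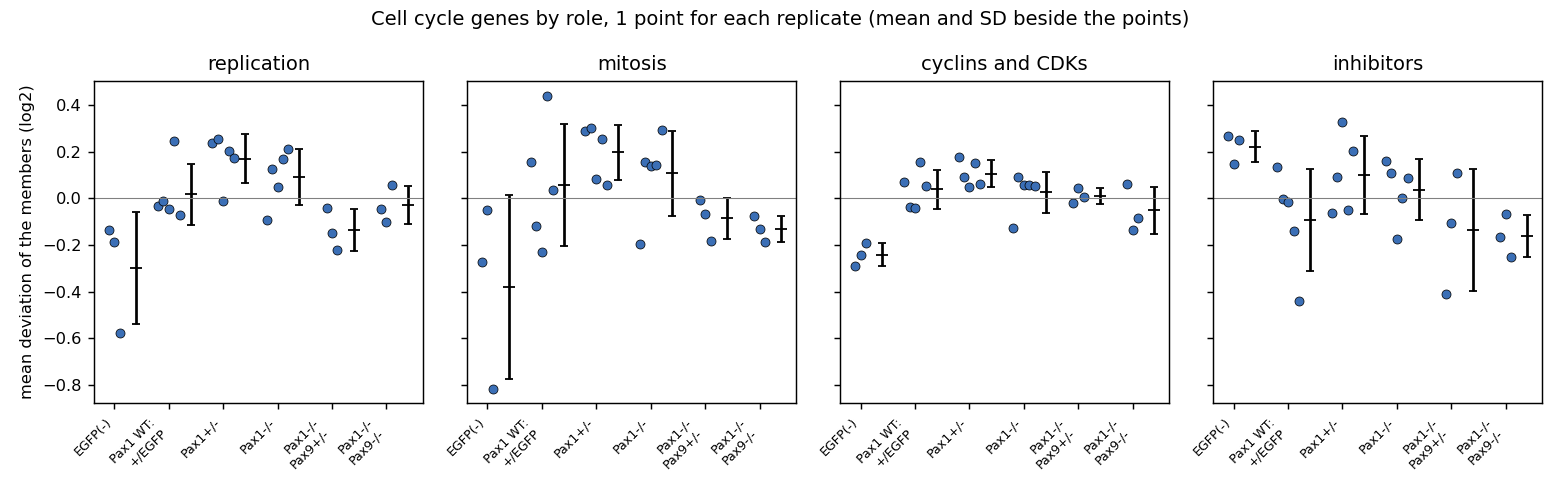
Mean deviation (log2) of the genes of each role from their average over the series, 1 point per replicate, in the 6 groups. EGFP(-) B3 is the low point for replication and mitosis genes, at -0.58 and -0.82.

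Further genes of the same pathways, listed by name, moved alongside. Of 41 measured genes among 42 other replication genes, 6 rose in WT, 16 in *Pax1+/-* and 9 in *Pax1-/-*, and 0 fell, with medians of 0.37, 0.49 and 0.48, beside 7.22%, 8.14% and 7.49% of all genes higher. Without EGFP(-) B3, 3, 6 and 6 of them rose, with medians of 0.31, 0.42 and 0.38. They included *Tk1*, which encodes thymidine kinase (0.99, 1.15 and 1.11), *Dut*, which encodes dUTPase (0.76 in WT and 0.75 in *Pax1-/-*), and *Chaf1b* (0.89 in WT), a subunit of the chromatin assembly factor. Of 44 measured among 48 other mitosis genes, 8, 15 and 17 rose and 0, 1 and 0 fell, beside the same shares of all genes higher. Without EGFP(-) B3, 3, 6 and 7 rose and 0 fell, and 5.94%, 6.62% and 5.99% of all genes were then higher. The mitosis genes that rose included *Kif20b*, a mitotic kinesin gene (0.97, 1.01 and 1.25), and *Cenpa*, which encodes the centromeric histone (0.94 in WT and 0.86 in *Pax1+/-*). Of 30 measured among 35 other regulators, 1 rose and 4 fell in each genotype, and without EGFP(-) B3 1 rose and 3, 3 and 5 fell. With all replicates, 7.22%, 8.14% and 7.49% of all genes were higher and 9.14%, 9.63% and 8.69% lower. The checkpoint kinase gene *Chek1* rose by 1.06 in WT, while *Rb1*, the retinoblastoma gene, fell by 1.91, *E2f2* by 1.19 and *Tfdp2*, an E2F partner gene, by 0.94. Without EGFP(-) B3, *Tfdp2* in WT stood at -0.61 (limma, adjusted p = 0.0602). Erythroid and myeloid markers fell in the same contrast, with 7 of 8 and 14 of 15 lower in WT; their part in the values of *Rb1*, *E2f2* and *Tfdp2* was not tested.

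Among EGFP(+) cells, the comparison with WT asks what the loss of *Pax1* alone does to these genes. In *Pax1-/-*, 0 of the 40 genes were called, against 0.247% of all genes tested (0.157% higher and 0.0897% lower). At an unadjusted p below 0.05 in limma, 2 genes differed, *Tyms* at 0.34 and *Cdkn1c* at 0.23 (adjusted p = 0.489 and 0.373), 5% of the 40 genes beside 9.68% of all genes, and the methods' t-test called 0 at its own threshold and 0 after Benjamini-Hochberg adjustment. The median difference was 0.02, beside 0.01 over all genes, and the replicates did not overlap for 0 genes, against 1.94% of all genes. With chip series as a block, 0 genes were called as well. *Ccnd2*, at 7.91 to 8.57 in *Pax1-/-* and 8.32 to 8.71 in WT, overlapped, as did *Cdkn1a*, at 4.87 to 5.78 and 4.56 to 5.44.

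In *Pax1+/-*, 0 of the 40 genes were called against WT, where 0.419% of all genes were (0.194% higher and 0.224% lower). At an unadjusted p below 0.05 in limma, 12 genes differed, 30% of the 40 beside 13.9% of all genes, and 30 of the 40 lay above 0, beside 51.6% of all genes. The median of the 40 was 0.18, beside 0.01 over all genes, and under centring of each array on its median, which shifted the median of all genes to 0.13, it was 0.32. The replicates did not overlap for 2 genes, against 2.44% of all genes. *Gmnn* stood at 6.91 to 7.35 in *Pax1+/-* and at 5.05 to 6.83 in WT, a difference of 0.77 (adjusted p = 0.183). *Ccnd2* stood at 8.12 to 8.23 against 8.32 to 8.71, a difference of -0.29 (adjusted p = 0.251). The low WT value of *Gmnn* was that of B7, which lies in chip series B. All *Pax1+/-* arrays lay in series A, whereas WT had arrays in both, so that series and genotype are partly mixed in all values of this comparison. On series A alone, 0 of the 40 genes were called, against 0.0598% of all genes. The shares at the unadjusted p are not given for series A alone.

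The compound mutants were compared with WT, from which they differ by the loss of *Pax1* and of *Pax9* copies together, and with each other, where they differ by the second *Pax9* copy. A comparison with *Pax1-/-*, which would set the first *Pax9* copy apart, was not made here. Some replication genes stood lower and others higher. In *Pax1-/-Pax9+/-*, *Mcm3* and *Cdc20* fell and 0 genes rose, against 2.33% of all genes lower and 2.45% higher, 4.78% in all. In *Pax1-/-Pax9-/-*, *Pcna* and *Cdc6* rose and *Mcm7* and *Cdc20* fell, against 3.32% higher and 3.54% lower, 6.86% in all. The replicates did not overlap with WT for 8 and 6 of the 40 genes, against 11.8% and 13.1% of all genes. The medians of the 40 genes were -0.13 and -0.12, beside -0.01 and 0.00 over all genes, and under centring of each array on its median they were -0.23 and -0.29, beside -0.11 and -0.11. In *Pax1-/-Pax9-/-* the summed endothelial markers stood at 586 to 753, against 264 to 516 in WT, and the sclerotome markers at 6560 to 6740, against 7440 to 9090; their part in the values was not tested. None of these 6 calls held with chip series as a block. That fit also took each array as a sample, without averaging paired arrays, so that the 2 changes cannot be told apart. Each array as a sample without a block also lowered the counts, as given below. The WT and *Pax1-/-* arrays of series B were on another chip, so that chip and group cannot be told apart for the compound mutants, and only the series can be modelled through those arrays.

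*Mcm3* and *Mcm7* encode subunits of the replicative helicase. *Mcm3* stood at 6.12, 6.23, 6.59, 6.21 and 5.98 in WT B2, B3, B4, B5 and B7, at 5.58, 5.63 and 5.02 in *Pax1-/-Pax9+/-* and at 5.60, 5.38 and 5.95 in *Pax1-/-Pax9-/-*. The WT replicates lay above all replicates of both compound mutants, narrowly so for WT B7 and the third *Pax1-/-Pax9-/-* replicate. *Mcm3* fell by 0.82 ± 0.17 (SE, limma, adjusted p = 0.00964) in *Pax1-/-Pax9+/-*, and by 0.58 ± 0.17 in *Pax1-/-Pax9-/-*, which passed the adjusted p (0.035) but lay just under the fold change. Without the library labelled *Pax1-/-Pax9-/-* B1 the latter was -0.56 (adjusted p = 0.0918), and without B2 it was -0.45 (adjusted p = 0.17). *Mcm7* stood at 7.93, 7.85, 7.97, 8.25 and 7.44 in WT, at 7.40, 7.43 and 7.49 in *Pax1-/-Pax9+/-* and at 7.18, 7.07 and 7.44 in *Pax1-/-Pax9-/-*. WT B7, a series B library, lay among the compound mutants. *Mcm7* fell by 0.66 ± 0.17 (adjusted p = 0.021) in *Pax1-/-Pax9-/-*, where its probes gave -0.31 and -1.01.

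*Cdc20* encodes the activator of the anaphase-promoting complex. It stood at 7.14, 6.66, 6.58, 6.98 and 6.17 in WT, at 6.14, 6.07 and 5.71 in *Pax1-/-Pax9+/-* and at 6.18, 5.83 and 5.79 in *Pax1-/-Pax9-/-*. WT B7 was again the WT replicate nearest to the compound mutants. *Cdc20* fell by 0.73 ± 0.21 (SE, limma, adjusted p = 0.0401) and by 0.77 ± 0.21 (adjusted p = 0.0251). In *Pax1-/-Pax9+/-* the call was lost in 8 of 21 fits that left out 1 replicate, at -0.87 to -0.60 over all of them: without any 1 of the 3 replicates of that group, without WT B2, B3, B4 or B5, and without *Pax1-/-* B2. In *Pax1-/-Pax9-/-* it was lost in 3 of 21, without B2 or B3 of that group and without WT B2. Its 4 probes ranged from -1.38 to -0.18 in *Pax1-/-Pax9-/-*.

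*Pcna*, the sliding clamp gene, and *Cdc6*, the helicase loader gene, moved the other way. *Pcna* stood at 8.75, 8.76, 8.21, 8.92 and 9.03 in WT, at 9.41, 8.95 and 9.23 in *Pax1-/-Pax9+/-* and at 9.51, 9.25 and 9.46 in *Pax1-/-Pax9-/-*. *Cdc6* stood at 6.43, 6.13, 6.15, 6.97 and 6.98 in WT, at 6.96, 6.97 and 7.29 in *Pax1-/-Pax9+/-* and at 7.22, 7.70 and 7.20 in *Pax1-/-Pax9-/-*. For both genes the *Pax1-/-Pax9-/-* replicates lay above WT, and the highest WT replicates were B5 and B7, the ones with series B arrays. *Pcna* rose by 0.68 ± 0.18 (SE, limma, adjusted p = 0.0235) and *Cdc6* by 0.84 ± 0.19 (adjusted p = 0.00919) in *Pax1-/-Pax9-/-*. In *Pax1-/-Pax9+/-* they differed by 0.46 (adjusted p = 0.124) and 0.54 (adjusted p = 0.0885). The kept probes of *Cdc6* gave 1.26 and 0.42.

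**Figure D4:**
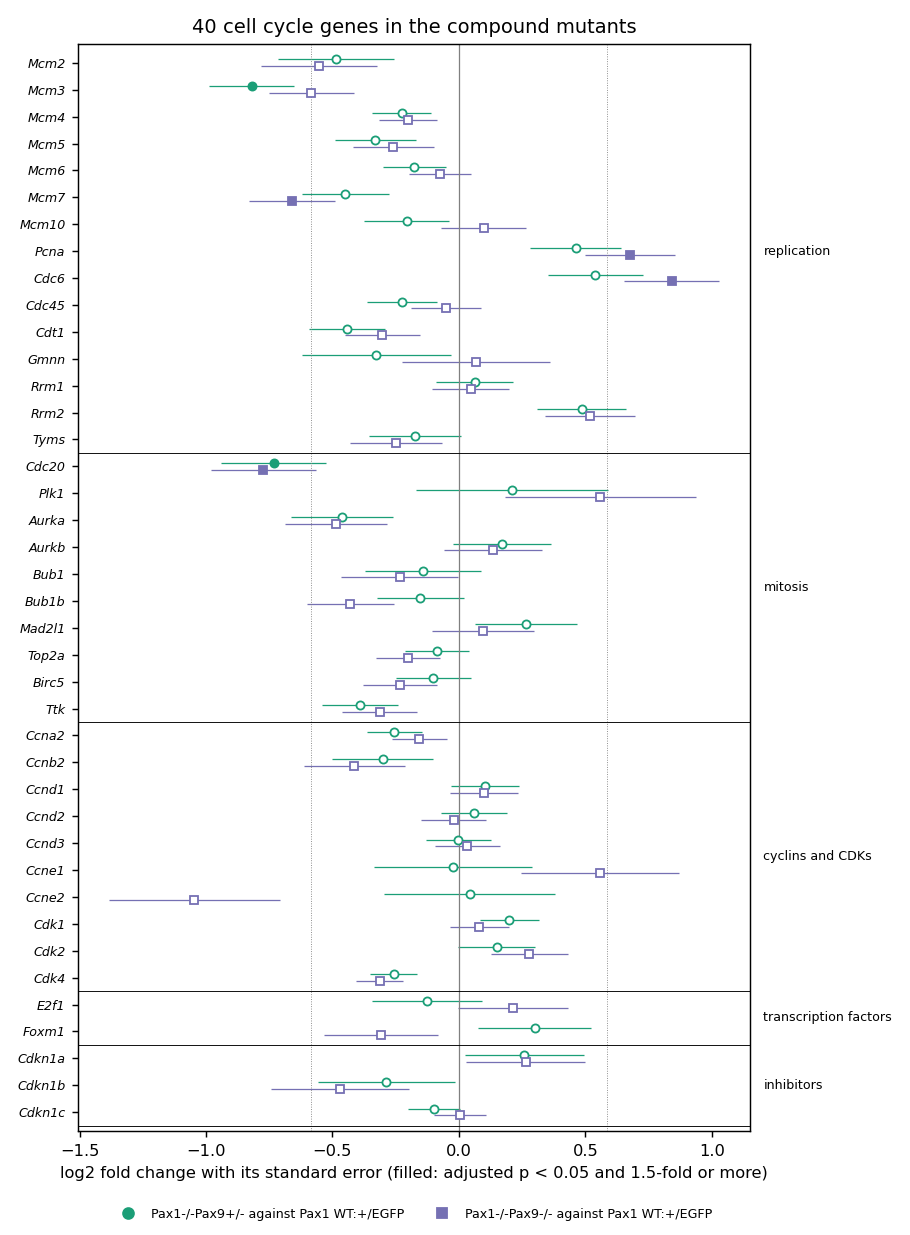
Log2 difference from WT (with standard error) of each of the 40 genes in *Pax1-/-Pax9+/-* and *Pax1-/-Pax9-/-*, grouped by role; filled points passed the adjusted p and the fold change. The filled points are *Mcm3*, *Mcm7* and *Cdc20* left of 0 and *Pcna* and *Cdc6* right of it.

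Within WT, the series B arrays differed from the series A arrays in the same direction as the compound mutants did. That difference was -0.55 for *Mcm3*, -0.41 for *Mcm7*, -0.67 for *Cdc20*, 0.46 for *Pcna* and 0.96 for *Cdc6*, and within *Pax1-/-* it was -0.20, 0.00, -0.05, 0.78 and 0.71. The series B arrays were thus higher in both genotypes for *Pcna* and *Cdc6*, and lower mainly in WT for *Mcm7* and *Cdc20*. The arrays of the 2 series are of partly different replicates, the WT and *Pax1-/-* arrays of series B share 1 chip, and the cause of the difference was not tested. With chip series as a fixed block, 0 of the 40 genes were called in either comparison. The values were then -0.59 for *Mcm3* in *Pax1-/-Pax9+/-* (limma, adjusted p = 0.298), and in *Pax1-/-Pax9-/-* -0.61 for *Mcm7* (adjusted p = 0.258), -0.62 for *Cdc20* (adjusted p = 0.29), 0.21 for *Pcna* (adjusted p = 0.65) and 0.23 for *Cdc6* (adjusted p = 0.586). The values of *Pcna* and *Cdc6* were thus reduced more in this fit, which also took each array as a sample, than those of *Mcm3*, *Mcm7* and *Cdc20*. On series B arrays alone, which leaves 2 WT arrays, the values were -0.45, -0.45, -0.37, 0.33 and 0.13 in the same order, and 0 genes were called.

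**Figure D5:**
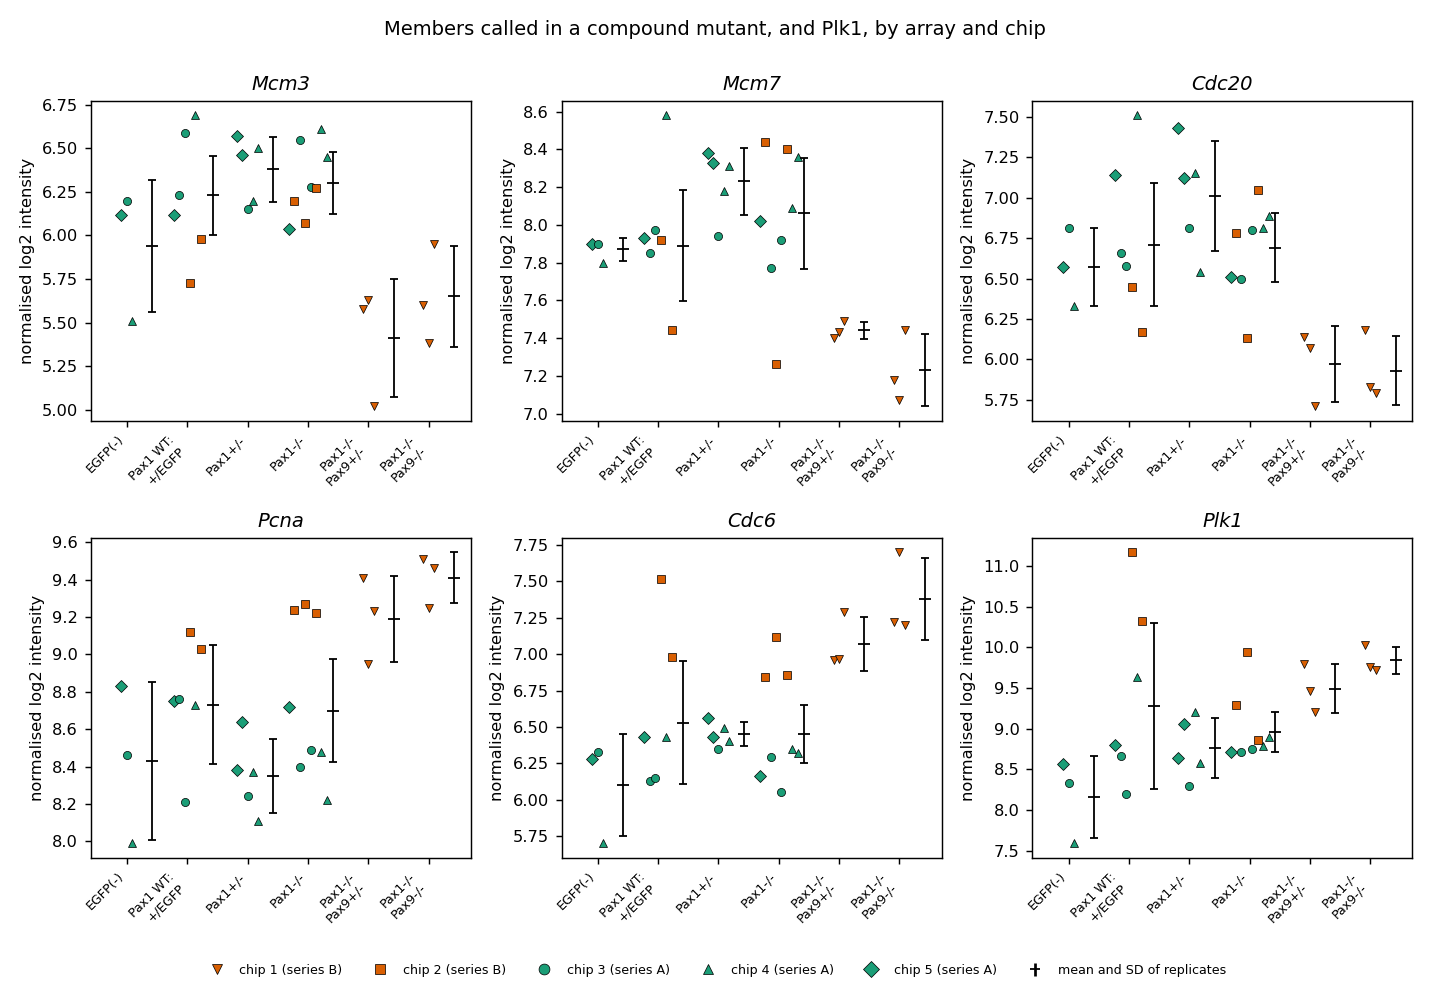
Level (log2 normalised intensity) of *Mcm3*, *Mcm7*, *Cdc20*, *Pcna*, *Cdc6* and *Plk1* on each array, by group, with the chip of each array marked and the mean and SD of the replicates beside. The series B arrays of WT lie toward the compound mutants, all of which are on 1 chip of that series.

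Leaving out the library labelled *Pax1-/-Pax9-/-* B1 left 2 genes called against WT, *Cdc6* at 0.92 (limma, adjusted p = 0.0175) and *Cdc20* at -0.89 (adjusted p = 0.0303). *Mcm7*, at -0.64 (adjusted p = 0.0627), and *Pcna*, at 0.63 (adjusted p = 0.0765), were lost. The median of the 40 genes was then -0.15. Without B2 only *Pcna* was called, at 0.75, and without B3 3 genes were. Over the 21 fits that left out 1 replicate, 442 to 1567 of all genes were called in this comparison. The share of all genes in each single fit is not given here, so these counts cannot be set against it. For *Mcm3* in *Pax1-/-Pax9+/-*, the call was kept in 20 of 21 fits that left out 1 replicate and lost without B3 of that group. *Mcm3* was detected on 2 of 3 arrays of that group and was lowest in B3, at 5.02, so that the size of its fall is uncertain.

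Other genes of the set gave values that did not pass the test. *Ccne2*, which encodes a cyclin of the G1/S transition, stood at 4.92, 4.71 and 5.50 in *Pax1-/-Pax9-/-* and at 5.66 to 7.00 in WT, a difference of -1.05 (limma, adjusted p = 0.0551). It was detected on 1 of 3 *Pax1-/-Pax9-/-* arrays, against 5 of 6 WT arrays, so that the low levels are near background. Without the library labelled *Pax1-/-Pax9-/-* B1 the difference was -0.99 (adjusted p = 0.137). Its series B arrays were lower than its series A arrays by 0.91 in WT, and by 0.87 in *Pax1-/-*. *Cdk4* passed the adjusted p alone in *Pax1-/-Pax9-/-*, at -0.31 (adjusted p = 0.0397), and at -0.38 (adjusted p = 0.034) without B1. *Rrm2*, the small subunit of ribonucleotide reductase, stood at 11.73 to 11.95 in both compound mutants and at 10.84 to 11.87 in WT, and *Plk1* at 9.20 to 10.03 and 8.20 to 10.41. Both overlapped with WT, whose series B arrays were higher by 0.86 for *Rrm2* and by 1.92 for *Plk1*. The inhibitor genes did not pass either, with *Cdkn1b* at -0.29 and -0.47 and *Cdkn1c* at -0.10 and 0.00. Outside the 40 genes, *Rfc2*, a subunit of the clamp loader, fell by 0.60 and 0.77, *Dut* fell by 0.64 in *Pax1-/-Pax9-/-*, and *Cdc25b* and *Kif2c* rose, by 0.80 in *Pax1-/-Pax9+/-* and by 1.24 in *Pax1-/-Pax9-/-*. Without the library labelled *Pax1-/-Pax9-/-* B1, *Rfc2* stood at -0.86, *Dut* at -0.61 and *Kif2c* at 1.21, and the 3 calls held. Of the 41 other replication genes, 1 and 2 were lower in *Pax1-/-Pax9+/-* and *Pax1-/-Pax9-/-*, against 2.33% and 3.54% of all genes. Of the 44 other mitosis genes, 1 was higher in each, against 2.45% and 3.32%. Without B1, 4 of these replication genes were lower, and 1 of these mitosis genes was higher and 3 lower. The share of all genes called in that fit does not stand beside these counts. No value with chip series as a block is given for these genes.

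Between the compound mutants, *Pax1-/-Pax9-/-* against *Pax1-/-Pax9+/-*, all on 1 chip, 0 of the 40 genes were called, against 0.314% of all genes tested (0.127% higher and 0.187% lower), and 4 did not overlap, against 15.4%. At an unadjusted p below 0.05 in limma, 2 genes differed, 5% of the 40 beside 8.38% of all genes: *Ccne2* at -1.09 (adjusted p = 0.327) and *Foxm1* at -0.61 (adjusted p = 0.486). *Foxm1* stood at 5.91, 5.67 and 5.69 against 6.85, 6.10 and 6.13, without overlap, whereas *Ccne2*, at 5.28 to 6.93 and detected on 3 of 3 arrays in *Pax1-/-Pax9+/-*, overlapped. The median difference was 0.00, as over all genes, and the methods' test called 0 of the 40 genes at its own threshold and 0 after Benjamini-Hochberg adjustment. Without the library labelled *Pax1-/-Pax9-/-* B1, 0 genes were called again and the 2 differences were -1.03 and -0.68.

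Across the 21 EGFP(+) replicates, levels of gene pairs were correlated after removal of the group means, as a description without a test. The median correlation was 0.24 over 105 pairs of replication genes, 0.31 over 45 pairs of mitosis genes, 0.22 between the roles and -0.01 over 45 pairs of cyclins and CDKs. All pairs share arrays, chips and chip series. Single pairs ranged from -0.54 to 0.76 for replication genes, from -0.4 to 0.73 for mitosis genes and from -0.62 to 0.73 for cyclins and CDKs. No median over pairs of other genes stands beside these values. Whether the medians are particular to these genes therefore cannot be said.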

How the data were processed

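RNA of sorted E12.5 vertebral column cells was amplified (NuGEN) and hybridised to Illumina MouseWG-6 arrays. The authors exported background-subtracted, non-normalised probe intensity with a detection p-value per probe, and deposited these with a table of quantile normalised log2 values, used here as an alternative. From the 28 arrays on 5 chips, the deposited intensity values were corrected with normexp (936 negative control probes, offset 16) and quantile normalised, and log2 was taken. Probes with a detection p-value below 0.05 on at least 3 arrays were kept. The platform annotation gave 34885 of 45281 probes 1 gene, 18 several and 10378 none, and a gene was the mean of its kept probes with 1 symbol. Chip, series and replicate names come from the sample labels and file headers. Of the replicate names, 4 had a pair of arrays, which were averaged. The fits with each array as a sample, or with chip series or chip as a block, did not average them. limma 3.58.1 (lmFit, eBayes, R 4.3.3, statmod 1.5.0) was run over 13373 genes, for EGFP(-) comparisons on EGFP(-), WT, *Pax1+/-* and *Pax1-/-*, and for the others on the 5 EGFP(+) groups, without a block. Calls needed an adjusted p (Benjamini-Hochberg, over all genes) below 0.05 with a change of 1.5-fold or more. The fit was tested on simulated data with independent noise and no chip or chip series effect, so that such effects were not covered. The number of arrays limits the precision. Any of the 43 genes could be named; of other pathway lists, up to 4 called genes per comparison with the smallest adjusted p were, and *Pax1*, *Pax9* and undetected markers as checks. The members and lists were chosen with earlier results of these data known. Alternatives covered background correction, normalisation, the filter, the choice of probe, array averaging, chip, replicate block, the methods' tests (Student's t-test, one-way and Welch's ANOVA, used as alternatives only) and leaving out each replicate.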

Additional observations from a re-analysis of the deposited data

Results flagged for a closer look

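In each group of 5 replicates, the distance of the highest or lowest replicate from its nearest neighbour, as a share of the group's range, was set against Dixon's critical value. Of 120 such tests over the 40 genes in 3 groups, 7 stood out, where chance gives about 1 in 20. In WT, *Gmnn* was low in B7, at 5.05 against 6.60 to 6.83 in the others, and *E2f1* was low in B2, at 8.24 against 9.01 to 9.22. In *Pax1+/-*, *Mcm10* was low in B3, at 5.90 against 6.40 to 6.55. In *Pax1-/-*, *Cdc45* and *Aurka* were low in B1, at 7.61 against 8.01 to 8.13 and at 6.13 against 6.90 to 7.21. In B5 of the same genotype, *Pcna* was low, at 8.22 against 8.72 to 8.88, and *Birc5* was high, at 10.44 against 9.97 to 10.10.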

How the results depend on the processing

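For WT against EGFP(-), the 5 genes called became 2 with arrays centred on the median, 1 with the authors' log2 values, 9 with chip as a random block, 2 with the replicate block, and 0, 11 and 1 within chips 3, 4 and 5. For *Pax1+/-* against EGFP(-), the 10 became 0 within chip 3 and 3 within chip 5, and for *Pax1-/-* the 8 became 2 with the authors' values and 0 within chips 3 and 5. For *Pax1-/-Pax9+/-* against WT, the 2 became 1 with median centring, without the filter on dim probes or with each array as a sample, 0 with the authors' values, with chip series as a fixed block, with chip as a random block, on series B alone and with the methods' test after Benjamini-Hochberg adjustment, and 4 with the replicate block. For *Pax1-/-Pax9-/-* against WT, the 4 became 2 with the authors' values or the methods' unadjusted test, 1 with each array as a sample, and 0 with chip series as a fixed block, chip as a random block, series B alone or the methods' test after adjustment. The cause of these changes was not tested. Under the remaining alternatives, counts stayed within 1.5 times those reported. The counts of the further pathway genes without 1 library were added after seeing the data. Chip as a fixed block was likewise chosen then and gave 6, 9 and 7 genes against EGFP(-).

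Leaving out 1 replicate gave 3 to 7 genes for WT, 4 to 13 for *Pax1+/-* and 3 to 10 for *Pax1-/-* against EGFP(-), 0 to 5 and 1 to 8 for the compound mutants against WT, and 0 to 0 for the other comparisons. Single differences that turned sign past the threshold were *Gmnn* and *Bub1* in WT against EGFP(-), at 1.17 and 1.12 within chip 4, where 1 WT array stands against 1 EGFP(-) array, in place of -0.33 and -0.02. Of the single-gene values, 9068 were the same, 188 lost and 107 gained the call, 595 moved and 2 turned sign past the threshold. A called value was the same if the call held in the same direction. A value called in neither fit was the same if it shifted by less than its reported standard error, and otherwise had moved. Replicate names did not pair the groups: over 23 same-named pairs the deviations correlated between -0.19 and 0.15, 3 were best with their own name, and the replicate block gave 2, 8 and 6 genes against EGFP(-) and 4 and 4 for the compound mutants. Counts over all genes ranged from 576 to 2327 (2187 reported) for WT, 233 to 2504 (2377) for *Pax1+/-* and 489 to 2324 (2164) for *Pax1-/-* against EGFP(-), and, in the order of the text, 1 to 88 (33), 8 to 71 (56), 1 to 1217 (639), 89 to 1428 (917) and 19 to 45 (42) for the others. Median centring changed their split of higher and lower genes from 21 and 12 to 8 and 1, from 26 and 30 to 56 and 15, from 328 and 311 to 101 and 210, from 444 and 473 to 163 and 651 and from 17 and 25 to 4 and 15. The post hoc test of the methods was not run.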
